A study of Mus musculus with 9 samples.

Results

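Molecular chaperones and protein folding enzymes were represented by 72 genes of the 6213 gene symbols listed for the comparison of fatty acid loaded with untreated AML12 cells. They were chosen by a rule on gene symbols, with earlier results of these data known. They comprise the heat shock proteins of the Hsp70, Hsp90, Hsp60/10 and small families, the J-domain proteins and the subunits of the cytosolic chaperonin TRiC. Also included are the protein disulfide isomerases (PDI), the FKBP and cyclophilin prolyl isomerases, and the lectin chaperones calreticulin and calnexin. As assigned here by protein location, 40 members belong to the cytosol or nucleus, 20 to the endoplasmic reticulum and 10 to the mitochondrion. The other 2, Dnajc18 and Dnajc22, are membrane proteins kept apart from these compartments as other membrane members. By family, 30 were J-domain proteins, 10 cyclophilins, 8 TRiC subunits, 7 Hsp70 proteins, 6 FKBP proteins, 3 Hsp90 proteins, 3 PDI proteins, 2 mitochondrial chaperonin subunits, 2 lectin chaperones and 1 small heat shock protein.

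AML12 is a mouse hepatocyte line, derived from the liver of a mouse that carried a human TGF-alpha transgene. Total RNA was sequenced from 9 samples, 3 in each of 3 groups. Control cells were labelled as given no treatment. PA/OA cells were exposed to 0.2 mM PA and 0.4 mM OA (palmitate and oleate) for 24 h, a culture model of lipid loading. Ang(1-7) cells received the peptide angiotensin-(1-7) at 100 nM, 30 min before the same PA and OA. All groups are this 1 line, and the labels do not name a vehicle or an Ang(1-7) group without fatty acids.

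Chaperones bind unfolded chains and release them for folding. In the cytosol, Hsp70 works with J-domain partners, which stimulate its ATPase, and hands clients to Hsp90 or to the ring-shaped TRiC, which folds actin and tubulin. In the endoplasmic reticulum, where hepatocytes fold their secreted proteins, the Hsp70 BiP, the Hsp90 paralog GRP94, calnexin, calreticulin and the PDI enzymes do this work, and the unfolded protein response raises their genes through an ER stress response element. In the mitochondrion, imported chains pass from mortalin to the Hsp60 and Hsp10 chaperonin, whose genes lie head to head and carry heat shock elements.

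These elements were located in the RefSeq promoters of build GRCm38.p6, taken as the 250 bases before each annotated start. Of the 72 members, 57 matched a promoter. The others, among them Hspa8, Hsp90aa1, Hsp90ab1, Hspa9 and Cct4, could not be searched. The ER stress response element, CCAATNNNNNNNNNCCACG on either strand, occurred in the promoters of 6 of 19 reticulum members, 0 of 31 cytosolic members and 0 of 7 mitochondrial members, against 0.113% of all 32851 windows. The matches are shown because they separate a set of reticulum genes by sequence alone. The fixed letters are in capitals, each site is written along the strand that reads as the motif, and Hsp90b1 had 2 sites.
Calr chr8:84847075-84847093: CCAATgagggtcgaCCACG
Canx chr11:50325800-50325818: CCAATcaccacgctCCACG
Dnajc3 chr14:118937827-118937845: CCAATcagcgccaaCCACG
Hsp90b1 chr10:86705533-86705551: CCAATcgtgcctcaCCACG
Hsp90b1 chr10:86705638-86705656: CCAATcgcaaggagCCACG
Hspa5 chr2:34772025-34772043: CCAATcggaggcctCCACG
Pdia6 chr12:17266491-17266509: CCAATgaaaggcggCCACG

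These sites belong to the genes of calreticulin, calnexin, the BiP co-chaperone p58IPK (Dnajc3), GRP94 (Hsp90b1), BiP (Hspa5) and the disulfide isomerase P5 (Pdia6). Neither ATTGGNCCACG, the ER stress response element II, nor TGACGTGG, the unfolded protein response element, occurred in a member's window. The CCAAT box contained in the first element is common by itself and was present in 33.8% of all windows. A heat shock element of 3 units, GAANNTTCNNGAA on either strand, occurred in 3 of the 57 member genes searched (Hspd1, Hspe1 and Dnajb6) and in 0.466% of all windows. Its shorter form TTCNNGAA, which lies within it, was found in 7.17% of windows and in 6 member genes. The promoters of the 2 members of lowest p that held an element are given from the base 250 before the start to the last base before it, with the element in capitals.
Hspe1 chr1:55087898-55088147 plus strand: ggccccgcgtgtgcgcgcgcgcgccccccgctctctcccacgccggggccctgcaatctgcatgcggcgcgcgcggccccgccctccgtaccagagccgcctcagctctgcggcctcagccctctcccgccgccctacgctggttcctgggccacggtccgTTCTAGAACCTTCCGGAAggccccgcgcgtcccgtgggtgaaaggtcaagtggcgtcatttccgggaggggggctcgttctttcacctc
Dnajc3 chr14:118937682-118937931 plus strand: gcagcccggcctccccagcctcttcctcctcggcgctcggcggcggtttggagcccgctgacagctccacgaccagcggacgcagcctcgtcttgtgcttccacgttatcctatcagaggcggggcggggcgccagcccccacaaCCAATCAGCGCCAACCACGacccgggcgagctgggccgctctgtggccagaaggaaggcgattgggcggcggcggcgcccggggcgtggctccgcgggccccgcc

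The capitals in Hspe1 cover 2 overlapping heat shock elements, 89 to 72 bases before the start, and the same bases lie in the window of Hspd1 on the opposite strand. The capitals in Dnajc3 are its ER stress response element, 105 to 87 bases before the start. The window of Hspa4l held none of the elements searched. A match of letters is a description of the sequence and does not show that a factor binds there.

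The libraries held 24588312 to 28704499 counts, and levels below are CPM, counts as a rate of the scaled library total. Transferrin and the keratins of the hepatocyte marker list were present, 6 of 11 markers being listed in the control table, with summed levels of 22328 to 23818 CPM. Within that sum the listed plasma protein genes moved apart, as counts. Transthyretin (Ttr) had 422, 233 and 417 counts in control and 125, 111 and 64 in PA/OA cells, without overlap. Albumin (Alb) had 325, 247 and 172 counts in control and 208, 151 and 80 in PA/OA cells, with overlap, and transferrin (Trf) 13356, 11934 and 14074 against 18142, 17068 and 15270, without overlap. Fgb, Serpina1a, Cebpa, Apoa1 and Apoe were not listed in the control table. Of 26 nervous tissue markers, 1 was listed in that table (Mbp, 117 to 140 CPM). The 4 listed cholangiocyte markers (Krt7, Krt19, Sox9 and Spp1, of 5) summed to 1993 to 2135 CPM in control and 1568 to 1711 CPM in PA/OA cells. The 3 listed macrophage markers (Cd68, Cd14 and Lyz2, of 7) summed to 587 to 626 CPM in control and 674 to 816 CPM in PA/OA cells, and Adgre1, Csf1r, Clec4f and Ptprc were not listed. The part of these shifts in the results below was not tested. The library Ang(1-7) 2 stood apart: its correlation with the other libraries over genes (log2 CPM) was 0.902 to 0.935 (genes are not independent replicates), and it was the highest or lowest of 9 libraries for 46 of 70 members (65.7%) and for 59.8% of all genes. For the 2 fatty acid groups, 15 of the 26 nervous tissue markers were listed. All 15 were above 0 in Ang(1-7) 2 and 3, whereas 5 or 6 were above 0 in the PA/OA samples and Ang(1-7) 1. Listing reached down to a mean count of 5.17, so a marker could be listed through Ang(1-7) 2 and 3 alone. The count of 15 in these libraries is therefore partly set by the listing. The summed level of the 15 markers was 237 CPM in Ang(1-7) 2, 209 CPM in Ang(1-7) 3 and 128 to 139 CPM in the others. Neurofilament light chain (Nefl) had 923 and 477 counts in these 2 libraries and 0 in the other 4.

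PA/OA was compared with control to ask what lipid loading changed. The mitochondrial co-chaperonin gene Hspe1 fell by 0.38 on the log2 scale, and the genes of 2 chaperone partners, Hspa4l in the cytosol and Dnajc3 in the reticulum, rose by 0.29 and 0.27. These 3 of 72 members passed an adjusted p of 0.05 (edgeR quasi-likelihood test, Benjamini-Hochberg over all genes), against 5.05% of all 6213 genes. By direction, 2 members were higher, against 2.82% of genes, and 1 was lower, against 2.24%. Other tools called more members: DESeq2 10 (10.4% of genes) and limma-voom 6 (5.01%). A fit corrected for length and GC called 6 of the 64 members with a length (5.85% of genes). Of the 3 members above, those 6 included Hspe1 alone, as Dnajc3 did not pass and Hspa4l had no length. The members' median log2 difference was -0.08 and that of all genes 0.01. Reticulum members lay mostly above 0, with 16 of 20 higher and a median of 0.15. Cytosolic members lay mostly below 0, with 29 of 40 lower and a median of -0.14. Mitochondrial members did likewise, with 8 of 10 lower and a median of -0.32. The 2 other membrane members, Dnajc18 and Dnajc22, were at -0.24 and -0.11, with overlapping groups. The mitochondrial median was -0.10 without control 1, -0.17 without PA/OA 2, -0.17 on curated transcripts and -0.19 after the length and GC correction (8 members in each of the last 2). In all, 9 members had every PA/OA sample above every control sample and 14 had every PA/OA sample below, against 12.2% and 11.6% of all genes.

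**Figure D1:**
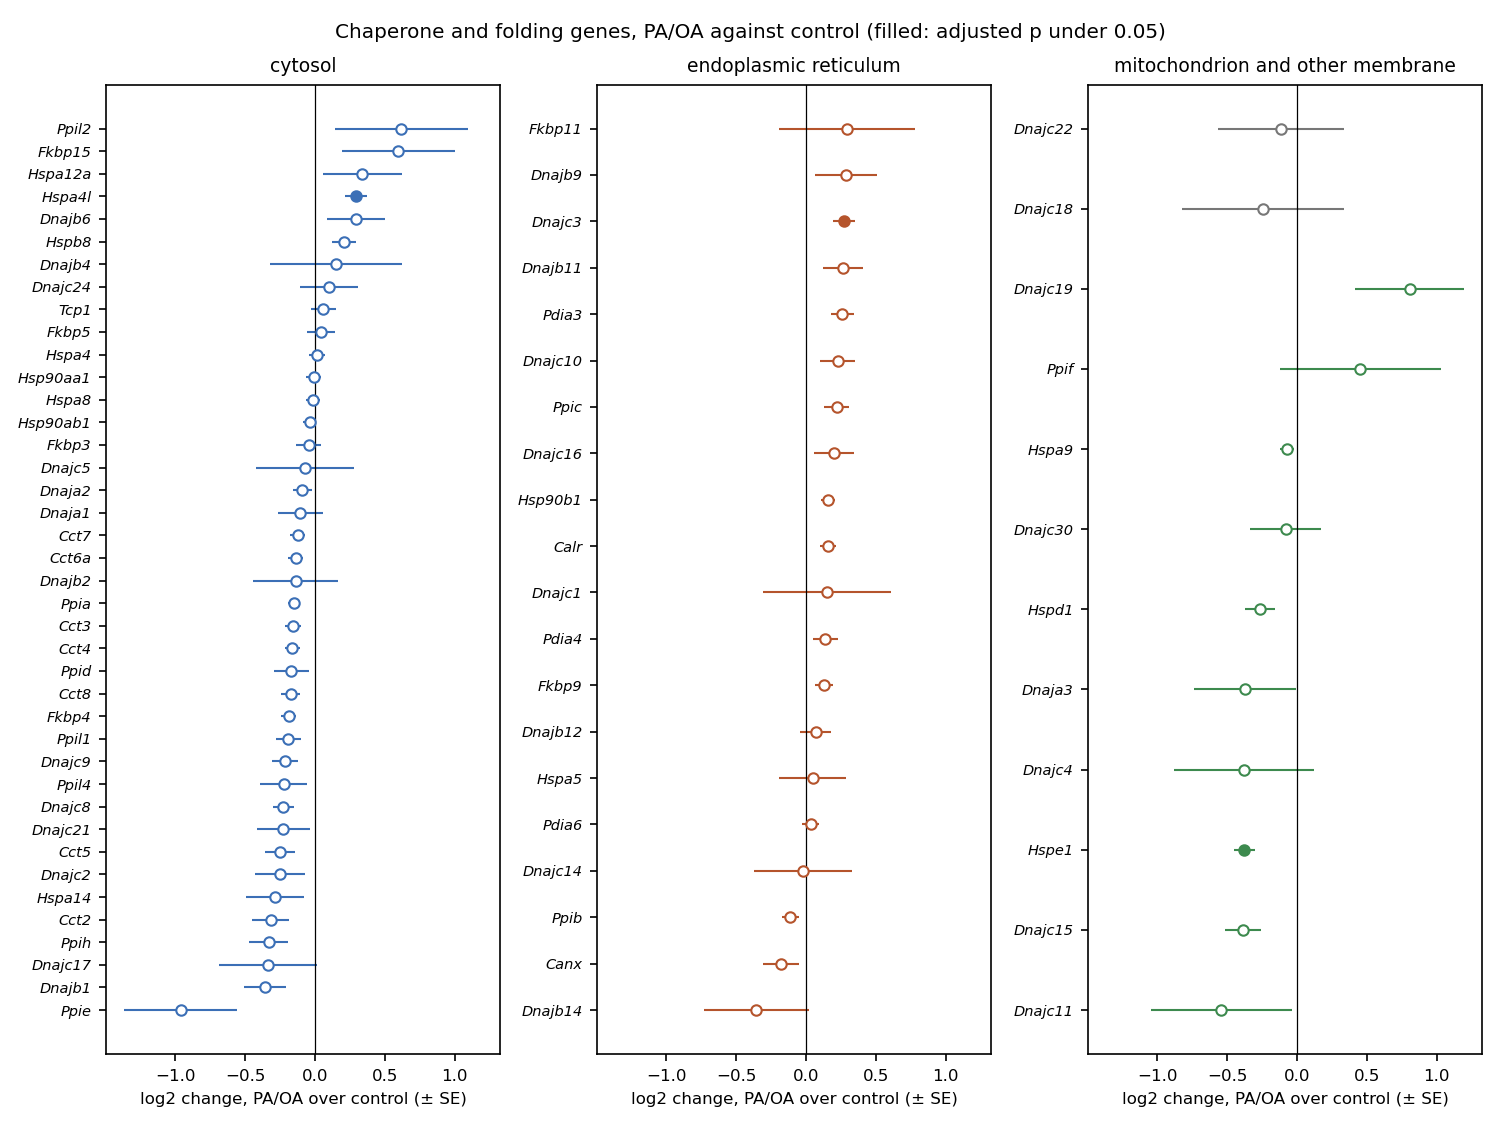
Log2 difference of PA/OA over control with its standard error for the 72 members (x axis), one row per gene, in panels for the cytosol, the endoplasmic reticulum, and the mitochondrion with 2 other membrane proteins. Filled points are the 3 genes with an adjusted p under 0.05; most reticulum genes lie to the right of 0 and most TRiC genes to the left.

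The mitochondrial matrix chaperonin consists of Hsp60 (Hspd1) rings capped by Hsp10 (Hspe1). Hspe1 measured 559.6, 522.2 and 563.7 CPM in the control samples and 382.7, 423.2 and 460.7 CPM in the PA/OA samples. Every PA/OA value lay below every control value. The log2 difference was -0.38 ± 0.07 (SE, n = 3 a group; adjusted p = 0.00446, edgeR quasi-likelihood test), a fall of 23% against the control mean, which was called in each of the 6 fits that left out 1 sample (adjusted p 0.00422 to 0.0449). RefSeq annotates 6 pseudogenes named after Hspe1 and 5 after Hspd1, so the assignment of reads among the copies is uncertain. After the length and GC correction the log2 difference of Hspe1 was -0.26 (adjusted p = 0.0294 in edgeR). With all 9 samples in 1 fit, which includes the library standing apart, the adjusted p of Hspe1 was 0.599.

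Hspd1 measured 112.1, 102.2 and 90.1 CPM in control and 88.0, 81.8 and 83.5 CPM in PA/OA cells. Its groups did not overlap, and the log2 difference of -0.27 ± 0.11 gave an adjusted p of 0.172 in edgeR. The matrix Hsp70 mortalin (Hspa9), which pulls imported chains through the inner membrane, measured 3481, 3497 and 3639 CPM in control and 3308, 3284 and 3506 CPM in PA/OA cells. These groups overlapped, at a log2 difference of -0.07 ± 0.05. Dnajc15, a J-domain protein of the inner membrane import motor, measured 58.2, 71.2 and 61.4 CPM in control and 47.0, 52.6 and 46.2 CPM in PA/OA cells, without overlap (-0.39 ± 0.13, adjusted p = 0.0882 in edgeR, 0.0309 in DESeq2 and 0.00988 at -0.54 after the length and GC correction). Its relative Dnajc19 was the mitochondrial member with the largest upward difference, 0.81 ± 0.39, at 2.64 to 4.52 CPM in control and 5.07 to 8.11 CPM in PA/OA cells, with an adjusted p of 0.265 in edgeR. Dnajc11 had the largest downward one, -0.54 ± 0.51, with overlapping groups. Cyclophilin D (Ppif), a regulator of the permeability transition pore, had 0.958 to 2.68 CPM in control and 1.32 to 4.95 CPM in PA/OA cells, with overlapping groups.

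Of the 31 genes chosen as partners of these members in mitochondrial folding, import and proteolysis, 23 were listed, and 2 fell, against 2.24% of all genes, with 20 of 23 below 0 and a median of -0.21. DESeq2 and the length and GC correction each called 6 of the 23 (10.4% and 5.85% of genes in either direction), and the fit of all 9 samples called 0. With 1 library left out, 3 genes of the list passed without PA/OA 1 and 2 without control 2. Leaving out control 1 or 3, or PA/OA sample 2 or 3, each time left 1 call. The outer membrane import receptor Tomm22 went from 489 ± 10.2 to 392 ± 12.9 CPM (SD, n = 3; log2 -0.32 ± 0.07, adjusted p = 0.00699 in edgeR). The intermembrane space chaperone Timm8b went from 172 ± 9.06 to 139 ± 2.41 CPM (-0.31 ± 0.09, adjusted p = 0.0429 in edgeR). The next lowest were Timm23, the channel of the inner membrane, at -0.27 ± 0.08 (adjusted p = 0.0651), and Grpel1, the exchange factor of mortalin, at -0.26 ± 0.08 (adjusted p = 0.0797), both in edgeR.

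In the reticulum, Dnajc3 encodes p58IPK, a lumenal J-domain partner of BiP. It measured 194.0, 207.6 and 206.7 CPM in control and 238.6, 254.7 and 241.1 CPM in PA/OA cells, so the groups did not overlap. The rise of 0.27 ± 0.08 passed the test narrowly (adjusted p = 0.0466 in edgeR). It was not called in any of the 6 fits without 1 sample (adjusted p 0.0517 to 0.189) and was 0.15 (adjusted p = 0.288) once transcript length and GC content were corrected for.

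GRP94 (Hsp90b1), which folds integrins and Toll-like receptors, measured 2609, 2667 and 2591 CPM in control and 2879, 2848 and 3066 CPM in PA/OA cells. The log2 difference of 0.16 ± 0.05 did not pass the test (adjusted p = 0.0693 in edgeR) and did in DESeq2 (adjusted p = 0.0476). Pdia3, the disulfide isomerase that works with calnexin and calreticulin, measured 432.4, 457.5 and 391.9 CPM in control and 467.4, 589.1 and 479.6 CPM in PA/OA cells (0.26 ± 0.09, adjusted p = 0.0800 in edgeR, 0.04998 in DESeq2). All PA/OA values of both genes lay above the controls, with PA/OA 2 the highest for Pdia3 and PA/OA 3 for Hsp90b1. Calreticulin (Calr) overlapped, at 3252, 3100 and 3094 CPM against 3685, 3225 and 3624 CPM (0.16 ± 0.05, adjusted p = 0.105 in edgeR). Its membrane-bound relative calnexin (Canx) measured 60.4, 49.9 and 55.2 CPM in control and 49.9, 45.9 and 50.4 CPM in PA/OA cells (-0.18 ± 0.13).

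BiP itself (Hspa5), the central reticulum Hsp70 and sensor partner of the unfolded protein response, measured 34.4, 25.3 and 14.6 CPM in control and 19.9, 30.6 and 26.5 CPM in PA/OA cells. Its groups overlapped widely (0.05 ± 0.24), and a change of the size seen for Dnajc3 could not be told from the spread. Hspa5 and Canx have 2 and 3 annotated transcripts, of which 1 each was listed. Their levels are those of the listed counts and may not cover the whole gene. The BiP partners Dnajb9 and Dnajb11 had log2 differences of 0.29 ± 0.22 and 0.27 ± 0.15, and the isomerases Pdia4 and Pdia6 of 0.14 ± 0.09 and 0.03 ± 0.06, all with overlapping groups. Ppib, the cyclophilin that acts on procollagen, was the 1 reticulum member with every PA/OA sample lower, at 628.4, 633.2 and 604.3 CPM against 572.4, 583.8 and 571.1 CPM (-0.11 ± 0.06, adjusted p = 0.350 in edgeR). The prolyl isomerases Ppic and Fkbp9 had every PA/OA sample higher, at 0.22 ± 0.09 and 0.13 ± 0.07. The largest differences, 0.29 ± 0.49 for Fkbp11 and -0.36 ± 0.38 for Dnajb14, came at levels under 8 CPM. Among the 6 members with the ER stress response element, 5 were above 0 and 1 (Dnajc3) passed, with a median of 0.10.

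Of 60 genes chosen for reticulum folding, quality control and the unfolded protein response outside the members, 40 were listed and 0 were called by edgeR, with 1 called by DESeq2, 0 by limma-voom and 2 after the length and GC correction. At an unadjusted p under 0.05 stood 3 higher and 5 lower, a share of the 40 near the 19.4% of all genes. The median was 0.05. The lowest p belonged to Mesdc2, a chaperone of lipoprotein receptors, at 253 ± 14.2 CPM in control and 212 ± 8.96 CPM in PA/OA cells (log2 -0.25 ± 0.08, adjusted p = 0.0685 in edgeR). The stress sensor IRE1 (Ern1) was at 0.42 ± 0.15 (adjusted p = 0.124), the translocon subunit Sec61b at -0.29 ± 0.11 (adjusted p = 0.131) and the stress response factor Atf4 at -0.38 ± 0.14 (adjusted p = 0.132), all in edgeR.

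**Figure D2:**
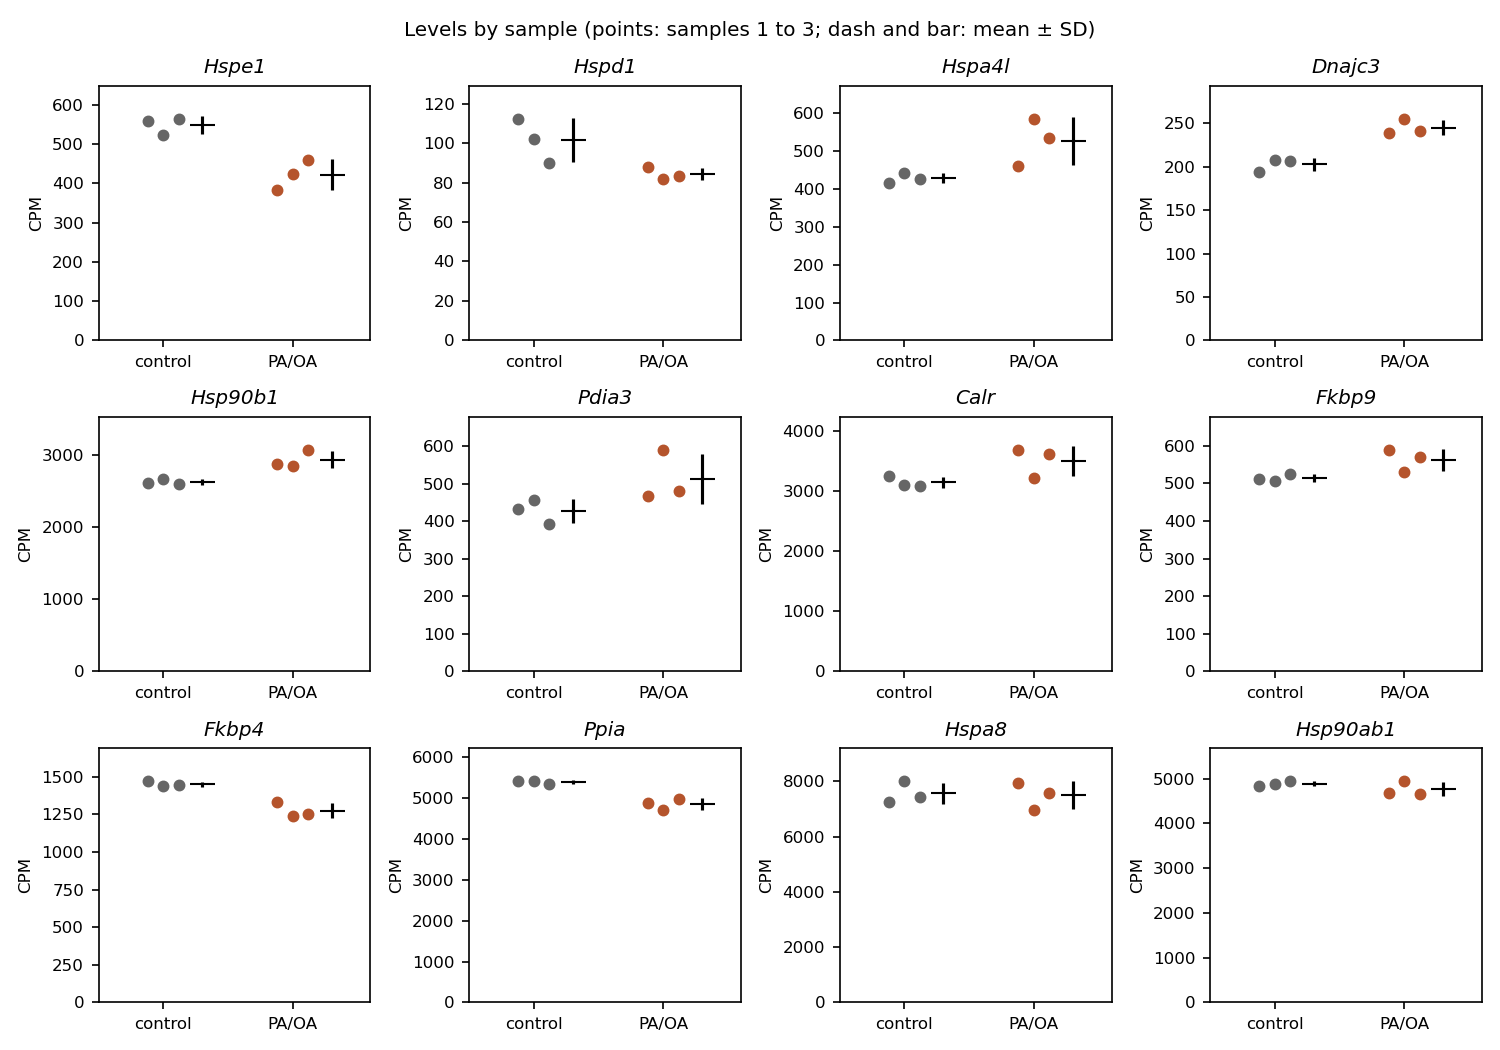
CPM of 12 members in the 3 control and 3 PA/OA samples (points), with the mean and SD beside them; each y axis starts at 0. Hspe1, Hspd1, Fkbp4 and Ppia lie lower in all PA/OA samples, Hspa4l, Dnajc3, Hsp90b1, Pdia3 and Fkbp9 higher, and Calr, Hspa8 and Hsp90ab1 overlap.

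In the cytosol, Hspa4l (Apg-1) encodes an Hsp110-type exchange factor that resets Hsp70. It measured 416.2, 443.0 and 426.7 CPM in control and 459.2, 583.8 and 533.8 CPM in PA/OA cells, each PA/OA sample lying above the controls. It rose by 0.29 ± 0.08 (adjusted p = 0.0345 in edgeR). Only 1 predicted transcript of Hspa4l was listed, so it could not be tested on curated transcripts. It had no length either and was not in the length and GC correction. The call was lost in 5 of the 6 fits without 1 sample (adjusted p 0.00323 to 0.211 over the 6, the lowest without PA/OA 1). The related Hspa4 differed by 0.01 ± 0.06.

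The main cytosolic chaperones had overlapping groups. Constitutive Hsc70 (Hspa8) measured 7261, 8002 and 7416 CPM in control and 7940, 6955 and 7582 CPM in PA/OA cells, a log2 difference of -0.01 ± 0.05. The Hsp90 genes Hsp90aa1 and Hsp90ab1 differed by -0.01 ± 0.05 and -0.04 ± 0.05. The J-domain partners of Hsc70, Dnaja1 and Dnajb1, were at -0.11 ± 0.16 and -0.36 ± 0.15 (adjusted p = 0.188 for Dnajb1 in edgeR). The small heat shock protein Hspb8, which acts with Bag3 in clearing misfolded proteins, measured 173.9, 192.8 and 169.8 CPM in control and 223.4, 197.7 and 198.8 CPM in PA/OA cells, without overlap but with an adjusted p of 0.177 in edgeR.

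Among the prolyl isomerases, Fkbp4 (FKBP52), an Hsp90 co-chaperone of steroid receptors, measured 1471, 1438 and 1444 CPM in control and 1331, 1238.4 and 1250.5 CPM in PA/OA cells. The difference of -0.19 ± 0.06 was just outside the threshold (adjusted p = 0.0512 in edgeR) and passed in DESeq2 (adjusted p = 0.0140). Cyclophilin A (Ppia), the target of cyclosporin, measured 5410, 5406 and 5330 CPM in control and 4881, 4700 and 4973 CPM in PA/OA cells (-0.15 ± 0.04, adjusted p = 0.0604 in edgeR, 0.0353 in DESeq2). The groups overlapped for neither gene. After the length and GC correction Ppia was at -0.10 (adjusted p = 0.205) and Fkbp4 at -0.21 (adjusted p = 0.0104), both in edgeR. Fkbp5 (FKBP51), a glucocorticoid-induced relative of Fkbp4, was at 0.04 ± 0.10. The cytosolic extremes were Ppil2 at 0.62 ± 0.48 and Ppie at -0.96 ± 0.41, both at under 8 CPM. Dnajc8, a spliceosome-associated J-domain protein, was at -0.23 ± 0.08 (adjusted p = 0.0940 in edgeR).

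TRiC is built from 8 different subunits, all of them listed. None passed edgeR's adjusted threshold, 7 of 8 were lower at an unadjusted p under 0.05 (19.4% of all genes had such a p in either direction), 1 was called by DESeq2 (Cct4) and 0 by limma-voom. Their median log2 difference was -0.16. Cct4 measured 1413, 1435 and 1371 CPM in control and 1208, 1256 and 1308 CPM in PA/OA cells (-0.16 ± 0.06, adjusted p = 0.103 in edgeR). Cct3 measured 1547, 1580 and 1528 CPM in control and 1344, 1348 and 1478 CPM in PA/OA cells (-0.16 ± 0.06). Cct6a and Cct7, like these, had every PA/OA sample below the controls, at -0.14 ± 0.05 and -0.12 ± 0.05. Cct2, Cct5 and Cct8 were at -0.32 ± 0.13, -0.25 ± 0.11 and -0.17 ± 0.07 with overlapping groups. The eighth subunit, Tcp1, was at 0.06 ± 0.09.

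**Figure D3:**
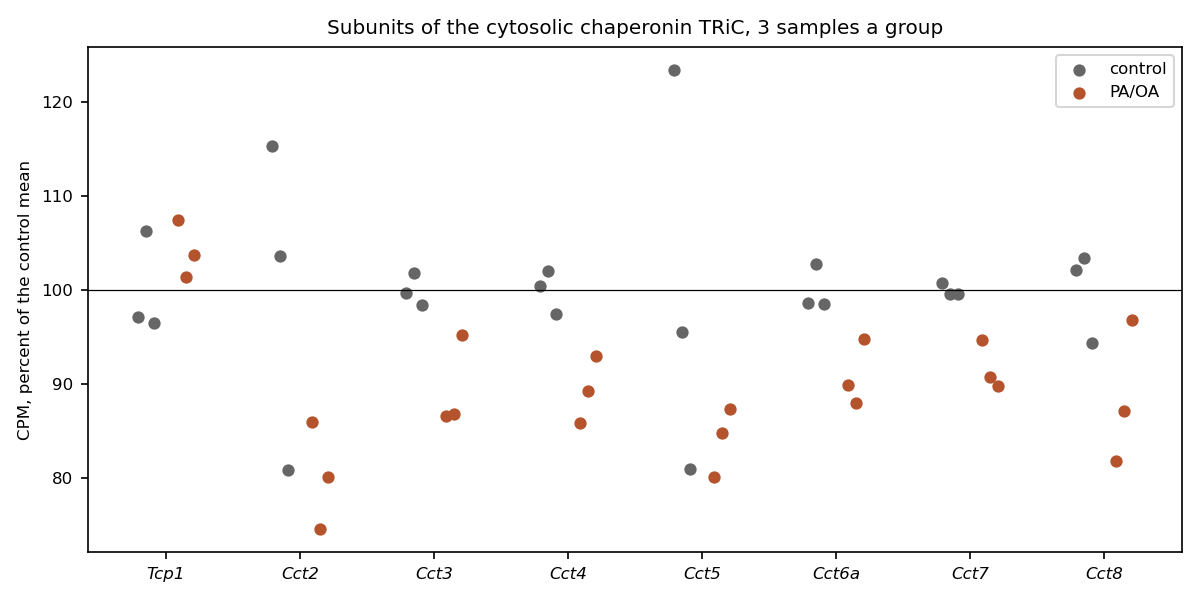
CPM of the 8 TRiC subunits in each control and PA/OA sample as a percent of the subunit's control mean (y axis does not start at 0). PA/OA samples of Cct3, Cct4, Cct6a and Cct7 lie below all control samples, and Tcp1 overlaps.

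Among 35 cytosolic co-chaperones and heat shock factors, 24 were listed and 2 fell, against 2.24% of all genes, with 18 of 24 below 0 and a median of -0.12. Both calls were lost with all 9 samples and without PA/OA 3, and 1 was left without control 1, control 2 or PA/OA 2 and after the length and GC correction. Prefoldin subunit Pfdn1, part of the complex that delivers actin and tubulin to TRiC, went from 431 ± 25.8 to 352 ± 10.3 CPM (log2 -0.30 ± 0.07, adjusted p = 0.0172 in edgeR). Btf3, part of the nascent chain complex at the ribosome, went from 29.1 ± 3.999 to 17.3 ± 1.17 CPM (-0.75 ± 0.18, adjusted p = 0.0207 in edgeR). Next came the ubiquitin ligase Stub1 (CHIP), which marks Hsp70 clients, at -0.19 ± 0.07 (adjusted p = 0.122), and the factor Hsf2 at 0.93 ± 0.35 (adjusted p = 0.131), both in edgeR.

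The comparison of Ang(1-7) with PA/OA asked what the peptide changed in loaded cells, and it shares the PA/OA samples with the comparison above. No gene passed, 0 of 9261 (0%) and 0 of 72 members, by edgeR's adjusted p. At an unadjusted p under 0.05 there were 236 genes (2.55%) and 3 members, all higher; DESeq2 called 5 genes (0.0487%) and 0 members, and limma-voom 0 of either. Every Ang(1-7) sample lay above every PA/OA sample for 9 members and below for 3, against 4.6% and 6.37% of all genes. Reticulum members had a median of 0.21 with 15 of 20 above 0, which was 0.09 without Ang(1-7) 2. The median was 0.05 for cytosolic members, and -0.01 without Ang(1-7) 2. For mitochondrial members it was -0.20, and -0.0009 without Ang(1-7) 2, -0.055 without PA/OA 3 and 0.02 with Ang(1-7) 1 alone.

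Dnajb9 (ERdj4), a BiP partner in degradation of misfolded chains, measured 27.9, 30.8 and 26.5 CPM in PA/OA and 33.0, 73.7 and 44.2 CPM in Ang(1-7) cells. All 3 Ang(1-7) values lay above PA/OA, with Ang(1-7) 2 far above the other two (0.82 ± 0.28, adjusted p = 0.965 in edgeR, and 0.46 without that library). Hsp90b1 measured 2894, 2826 and 3074 CPM in PA/OA and 3159.5, 4682.8 and 3362 CPM in Ang(1-7) cells (0.35 ± 0.15, or 0.17 without Ang(1-7) 2, adjusted p = 0.965 and 0.9995 in edgeR). Dnajb4, the third member at an unadjusted p under 0.05, had 2.76, 3.95 and 4.01 CPM against 5.20, 5.83 and 7.47 CPM (0.79 ± 0.35). Dnajc3 measured 239.8, 252.7 and 241.7 CPM in PA/OA and 257.9, 442.9 and 260.7 CPM in Ang(1-7) cells, a difference of 0.39 ± 0.20 that was 0.10 without Ang(1-7) 2. In the other direction, Hspd1 had 83.2, 14.9 and 81.5 CPM in Ang(1-7) cells and 88.4, 81.2 and 83.7 CPM in PA/OA cells. Canx had 50.8, 14.53 and 48.2 CPM in Ang(1-7) cells and 50.1, 45.6 and 50.6 CPM in PA/OA cells. In Hspd1, Hspe1 and Canx, Ang(1-7) 2 alone was low, and without it the differences were -0.02, 0.05 and 0.03.

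Ang(1-7) against control compares peptide and fatty acids together with untreated cells and shares samples with both comparisons above. It called 15 of 6134 genes (0.245%), all higher, and 0 of 70 members (Ppif and Ppil2 were not listed) in edgeR. At an unadjusted p under 0.05 stood 16 members, 9 higher and 7 lower, against 14.9% of all genes; DESeq2 called 2 members (Dnajb9 and Pdia3; 5.79% of genes) and limma-voom 0. Of 20 reticulum members, 10 had every Ang(1-7) sample above control and 0 had every sample below, where 13.2% and 13.3% of all genes did. The reticulum median was 0.37, and 0.22 without Ang(1-7) 2.

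Pdia3 measured 430.7, 455.8 and 390.7 CPM in control and 599.4, 662.0 and 535.5 CPM in Ang(1-7) cells (0.49 ± 0.12, adjusted p = 0.137 in edgeR). Hsp90b1 measured 2599, 2657 and 2583 CPM in control and 3154, 4563 and 3330 CPM in Ang(1-7) cells (0.50 ± 0.14, adjusted p = 0.183). Dnajc3 and Dnajb11 were at 0.64 ± 0.20 and 0.67 ± 0.20, and Calr at 0.29 ± 0.10, all without overlap and with adjusted p of 0.198 to 0.235 in edgeR. Hspe1 measured 557.5, 520.4 and 561.8 CPM in control and 433.3, 215.5 and 430.3 CPM in Ang(1-7) cells (-0.60 ± 0.24, adjusted p = 0.298 in edgeR).

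The count of calls rested on Ang(1-7) 2. Without that library, 624 of 6134 genes (10.2%) and 9 of 70 members passed in edgeR. Higher were Hsp90b1 (0.31, adjusted p = 0.000523), Pdia3 (0.41, 0.00222), Dnajc3 (0.35, 0.00849), Calr (0.21, 0.00871) and Hspa4l. Lower were Hspe1 (-0.34, 0.00364), Fkbp4 (-0.24, 0.00944), Ppia (-0.17, 0.0184) and Cct3 (-0.23, 0.0184). With Ang(1-7) 1 as the only library of its group, 4 members passed (Hsp90b1, Hspa4l, Pdia3 and Hspe1), against 229 of 6133 genes (3.73%), where the lone sample is assumed to vary like the others. The 15 nervous tissue markers were listed for the 2 fatty acid groups, where Ang(1-7) 2 and 3 alone could bring a marker into the listing. All were above 0 in these 2 libraries and 6 in Ang(1-7) 1. Their part in the counts of calls was not tested.

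**Figure D4:**
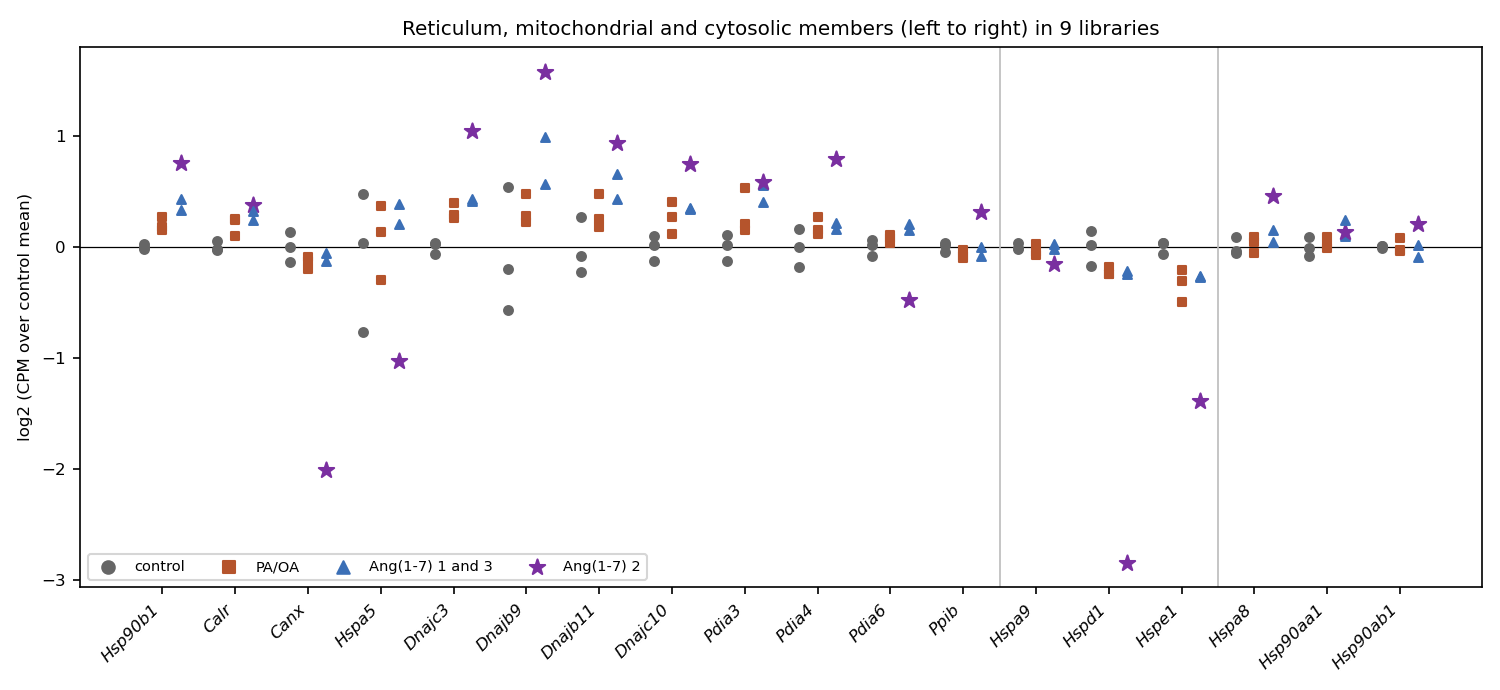
Log2 of CPM over the control mean (y axis) for 12 reticulum, 3 mitochondrial and 3 cytosolic members (x axis) in each of the 9 libraries, with CPM per total counts of listed transcripts and Ang(1-7) 2 as a star. For Dnajc3, Hspd1, Hspe1 and Canx the star lies far from Ang(1-7) 1 and 3, which lie near the PA/OA samples.

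Summed over the members listed in all 3 tables, the reticulum genes took 8904 ± 138 CPM in control, 10069 ± 186 CPM in PA/OA and 11344 ± 836 CPM in Ang(1-7) cells (SD, n = 3; library totals without scaling). The 3 groups did not overlap in this sum, which abundant Calr and Hsp90b1 dominate. How often sums of other genes separate the groups was not tested. The Ang(1-7) samples had 10694, 12288 and 11049 CPM, the highest in Ang(1-7) 2. By the same measure Calr overlapped between PA/OA (up to 3687 CPM) and Ang(1-7) cells (from 3665 CPM), whereas Hsp90b1 did not. Neither gene was called in Ang(1-7) against PA/OA. The TRiC sum was 7511 ± 213, 6962 ± 245 and 6967 ± 117 CPM, and the chaperonin sum 641 ± 22.8, 514 ± 40.7 and 429 ± 181 CPM, where Ang(1-7) 2 had 220 CPM and the other 2 samples 534 CPM. All members together took 48185 ± 846, 48372 ± 858 and 50898 ± 1481 CPM. In a bulk sample, fewer cells with a transcript and less of it per cell cannot be told apart.

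Per kilobase of transcript, which could be computed for 56 members with a curated listed transcript, the most abundant were Ppia at 4373, Hspa8 at 3144, Hsp90ab1 at 1913, Calr at 1525, Hsp90aa1 at 1274 and Hspa9 at 1132 CPM per kb, as means of the control and PA/OA samples. Hsp90b1 stood at 983 and Hspe1 at 627 CPM per kb. The level moved with the number of transcripts RefSeq annotates for a gene. The 30 of these members with 1 annotated transcript had a median of 283 CPM per kb, the 18 with 2 to 3 had 12.5 and the 8 with 4 or more had 1.72 CPM per kb. Over all genes with such a value these medians were 43.6, 5.64 and 2.53 CPM per kb. Hspa5 and Canx, with 2 and 3 annotated transcripts, stood at 9.65 and 12.1 CPM per kb. Single genes departed from this order both ways: Hspa8, with 2, stood at 3144 CPM per kb and Dnajb9, with 1, at 10.5 CPM per kb. How reads shared by several transcripts were counted is not given in the sources used here, and its part in these levels was not tested. Levels of members with several transcripts are given as values of the listed counts, which may not cover the whole gene.

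**Figure D5:**
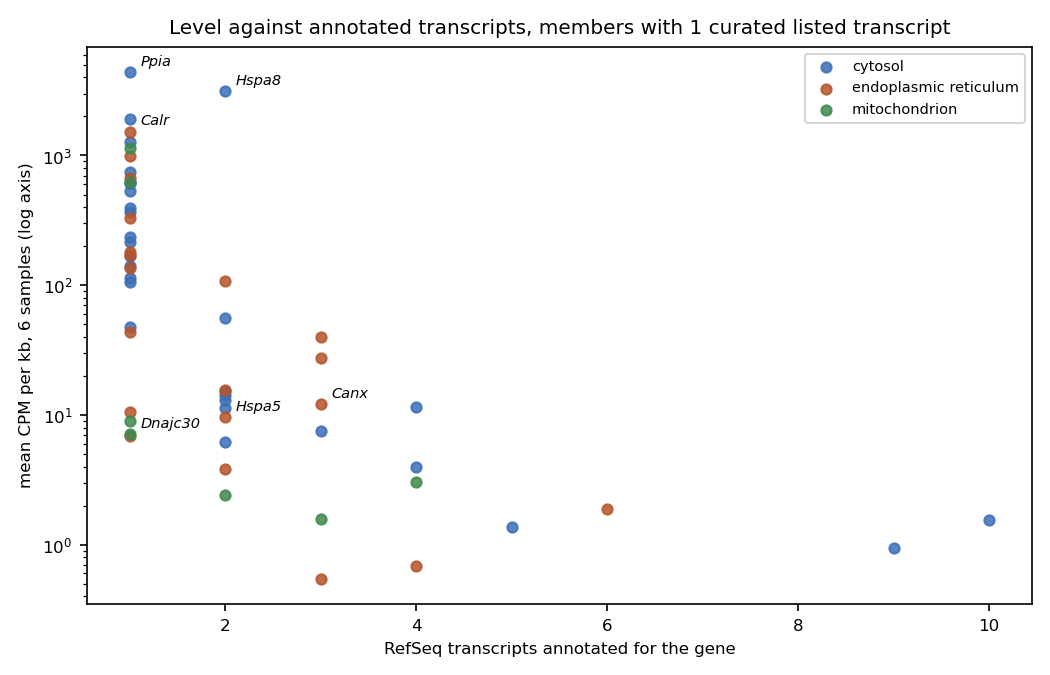
Mean CPM per kb over control and PA/OA samples (log axis) against the number of annotated RefSeq transcripts, for the 56 members with 1 curated listed transcript, colored by compartment. Hspa8 is high with 2 annotated transcripts, and members with 4 or more lie at or below 11.6 CPM per kb.

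RefSeq holds 118 protein-coding genes that match the symbol rule: the 72 members, 22 listed only in the table of both fatty acid groups, which reached lower counts, and 24 listed in none. The 22 had mean counts of 5.33 to 91.2, and 17 of them have more than 1 annotated transcript. They include the stress-inducible Hsp70 genes Hspa1a, with 44, 13 and 18 counts in PA/OA and 14, 44 and 10 in Ang(1-7) cells, and Hspa1b, with 69, 16 and 53 against 36, 2 and 44. Hspb1 (Hsp25) had 14, 0 and 0 against 0, 29 and 11 counts, Hsph1 (Hsp105) 32, 29 and 23 against 30, 0 and 13, and the reticulum exchange factor Hyou1 46, 72 and 21 against 33, 37 and 8. The groups overlapped for these 5 genes. They did not for Hspa1l, with 16, 22 and 36 counts in PA/OA and 4, 4 and 9 in Ang(1-7) cells. Nor did they for Fkbp7, with 3, 0 and 0 against 19, 4 and 6. Both were named after their values were seen. Over all 9261 genes tested in this comparison, 11% had groups without overlap, by CPM. Fkbp7 had a mean count of 5.33, near the lowest mean listed (5.17), so its listing rests on the Ang(1-7) samples. No control value was used here for the 22 genes.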

How the data were processed

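Each pair of groups has its own table, deposited by the authors, of whole-number read counts per RefSeq transcript. Per the submitters' processing notes, bcl2fastq, HISAT2 2.2.5 and HTSeq 0.11.2 were used, with a human build named although the tables hold mouse transcripts; how reads were counted is not given in the sources used here. Counts were summed by gene symbol over the transcripts listed for each pair, which differ between pairs for some members. Dnajc19, for example, had 1 listed transcript for PA/OA against control and 2 for Ang(1-7) against PA/OA. Its PA/OA means were 6.57 and 9.09 CPM in these comparisons. Each pair was fitted in edgeR 4.0.16 (R 4.3.3; TMM, filterByExpr, quasi-likelihood F test) with Benjamini-Hochberg adjustment over all genes, threshold 0.05, log2 values with standard errors, CPM after TMM, n = 3 a group. Precision depends on the 24588312 to 28704499 counts per sample and on the spread between replicates. That spread, as edgeR's biological coefficient of variation, was 22.4% in the fit of control and PA/OA samples. It was 44.3% in the fit of both fatty acid groups and 30.7% in that of control and Ang(1-7) samples. In simulated data for PA/OA against control (6213 genes), 45% of genes changed by 0.5 on the log2 scale and 71% of those changed by 1 were called. The shares were 5% and 53% for Ang(1-7) against PA/OA (9261 genes) and 4% and 51% for Ang(1-7) against control (6134 genes). The changed genes were drawn from those above a minimum mean count, which low-count members such as Ppif do not reach. All simulated libraries shared 1 spread at each level, so none stood apart as Ang(1-7) 2 does.

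Members, compartments and lists were chosen with earlier results of these data known. Named were called members, up to 6 others of lowest p, the extremes of each compartment and a fixed set of well-known chaperones; others, such as Ppic, Fkbp9 and Dnajc10, were chosen after their values were seen. Whether replicates were separate cultures is not in the labels; p-values therefore reflect the spread among these samples alone, and that spread may be technical. Alternatives were DESeq2 1.42.0, its size factors, limma-voom (limma 3.58.1), other filters (none, or a mean count of 50), a replicate block, curated transcripts, all 9 samples, each replicate left out and, chosen after seeing the data, a length and GC correction with splines, for which 88.9% of members had values. Promoters and transcript numbers are from RefSeq (GRCm38.p6), lengths from GENCODE.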

Additional observations from a re-analysis of the deposited data

How the results depend on the processing

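No direction of a called result reversed under any alternative run. For PA/OA against control, 3 members were called. The count was 10 in DESeq2 (4 higher, 6 lower, against 533 of 5129 genes with an adjusted p, 10.4%). It was 6 in limma-voom (5.01% of genes) and 6 after the length and GC correction (5.85%). This correction covered 64 of the 72 members, and its calls included Hspe1 but not Dnajc3. Hspa4l had no length and was not in that fit. The count was 0 with all 9 samples and 1 to 5 with 1 replicate left out. The all-9 fit takes its spread from all 3 groups. Only Hspe1 was called in every fit that left out 1 replicate. Without control 1 or control 2, 1 member passed, without control 3 or PA/OA 2, 2 did, without PA/OA 1, 5 did, and without PA/OA 3, 1 did. The 2 called cytosolic co-chaperones became 0 with all 9 samples, 1 after the length and GC correction and 0 to 3 with 1 replicate left out. The 0 of the reticulum list became 1 in DESeq2, 2 after the length and GC correction and 0 to 1 with 1 replicate left out, and the 2 of the mitochondrial list became 6 in DESeq2, 0 with all 9 samples, 6 after the length and GC correction and 1 to 3. The median of mitochondrial members was -0.1714 on curated transcripts (8 members), -0.1852 after the length and GC correction (8 members) and -0.3106 to -0.1003 with 1 replicate left out; that of cytosolic members ran from -0.1489 to -0.1156 and of reticulum members from 0.133 to 0.1751.

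For Ang(1-7) against PA/OA, medians with Ang(1-7) 1 alone were 0.0209 (cytosol), 0.0998 (reticulum) and 0.0237 (mitochondrion); with 1 replicate left out they ran from -0.0101 to 0.0637, 0.0926 to 0.2674 and -0.2947 to -0.0009. For Ang(1-7) against control, members called were 2 in DESeq2, 4 with Ang(1-7) 1 alone and 0 to 9 with 1 replicate left out. The cytosolic co-chaperone list gave 2 in DESeq2 and 0 to 2, the reticulum list 1 in DESeq2 and 0 to 2, and the mitochondrial list 1 in DESeq2, 2 with Ang(1-7) 1 alone and 0 to 7. The cytosolic median was -0.0791 in limma-voom, -0.0793 under the replicate block, -0.0870 after the length and GC correction, -0.1375 with Ang(1-7) 1 alone and -0.1484 to 0.0078 with 1 replicate left out. The mitochondrial median was -0.1287 on curated transcripts, -0.1574 after the length and GC correction, -0.2252 with Ang(1-7) 1 alone and -0.7026 to -0.1441, and the reticulum median 0.2194 to 0.3918. Apart from settings that use fewer genes or samples, the cause was not tested.

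Over all alternatives, a value of a named member was the same where its sign and its call both held. For PA/OA against control 580 were the same, 22 came past the threshold, 16 fell short of it and 16 changed sign. For Ang(1-7) against PA/OA 560 were the same and 41 changed sign. For Ang(1-7) against control 538 were the same, 13 came past the threshold and 20 changed sign. No value that changed sign was called in either fit.

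Deviations of same-numbered samples from the group means were nearly uncorrelated, and the numbers were not taken as pairs. The correlations were 0.0105, 0.0130 and 0.0178 in PA/OA against control and -0.0354 to 0.0343 in the other comparisons. Differently numbered samples gave -0.0124 to 0.000468 in PA/OA against control. With the replicate number as a block, 4, 0 and 0 members passed in the 3 comparisons, the first adding Pdia3 (adjusted p = 0.0475 in edgeR). In PA/OA against control every sample correlated best with its own number, a hint from the data and not the design. Depth limits members under about 10 CPM, whose standard errors reached 0.68 (Ppil2, Ang(1-7) against PA/OA).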
